A study of Homo sapiens with 8 samples.

Results

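Classical interferon-stimulated genes are the genes that cells switch on when interferon binds its receptors. A list of 42 of them was followed by gene name through a table of 35805 listed genes from K562, an established human leukaemia cell line that expresses erythroid genes. All 42 were found once in the table. The cells carried dCas9-KRAB, a Cas9 that cannot cut and bears a KRAB repressor, so that a guide RNA can direct it to silence a chosen gene. The 8 libraries of total RNA fall into 4 groups of 2: cells with the guide sg1-IRF2, cells with the guide sg2-IRF2, cells with the guide sgAAVS1, which targets a site used as a negative control, and untransduced cells without a guide. All groups carry the repressor, no group is labelled as treated with interferon, and guide cells were harvested 7 days after transduction. The labels do not say whether replicate libraries stem from separate cultures. A p-value here therefore speaks of the spread between libraries, which may be technical. In bulk RNA, fewer cells with a transcript and less of it in each cell cannot be told apart.

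IRF2 is a transcription factor of the interferon regulatory factor family. It binds the interferon-stimulated response element (ISRE), the promoter motif through which interferon switches on many of its target genes, and is best known as a repressor that competes with IRF1, though it also activates some genes. The proteins encoded by the 42 genes act at many steps against viruses: IFIT proteins bind viral RNA, MX proteins are dynamin-like GTPases that trap viral particles, and GBP proteins are GTPases that attack vacuoles holding pathogens.

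The 8 libraries held 5248359 to 6738348 reads over the listed genes, recovered from the deposited log2 values. IRF2 had 4 and 8 reads with sg1-IRF2, 22 and 21 with sg2-IRF2, 196 and 291 with sgAAVS1, and 271 and 268 in untransduced cells. The sgAAVS1 replicates differed from each other by more than counting noise (chi-square per degree of freedom 1.65, where counting alone gives 1), and those of the other groups by less (0.658 to 0.821). Over all 14665 tested genes, 7.11% were called lower with sg2-IRF2 than with sgAAVS1 and 7.12% higher with sg1-IRF2 than in untransduced cells, whereas the lower calls of sg1-IRF2 against sgAAVS1 (0.498%) and of sg2-IRF2 against untransduced cells (1.23%) were fewer. A gene is called here where the limma moderated test gave an adjusted p under 0.05 over all tested genes. Results are given for each guide against each control, and these comparisons share libraries. All 10 erythroid marker genes had at least 153 reads in every library. Of 6 lymphoid and 4 monocyte markers, 2 and 1 had at least 3 reads in every library, 1 of each list had no read, and the summed level over all libraries was 41.3 to 47.3 RPM (reads scaled to library size) for lymphoid and 55.3 to 60.7 for monocyte markers. The 6 genes listed for adherent lines were also read in every library, at a sum of 509 to 536 RPM with the IRF2 guides, 521 to 565 with sgAAVS1 and 556 to 564 in untransduced cells. The part of such differences in the results was not tested.

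The classical interferon-stimulated genes were sorted by the reads they had in the 4 control libraries (sgAAVS1 and untransduced). In 16 of the 42 there were under 12 control reads, in 3 there were 12 to under 80, and in 23 there were 80 or more, up to 5296. The 23 better-read genes held 32755 of the 32923 control reads of the list. A mean deposited log2 value of at least 0 over the 8 libraries, the level needed to enter the test, was reached by 25 genes: all 23, plus GBP4 and IFI16.

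**Figure D1:**
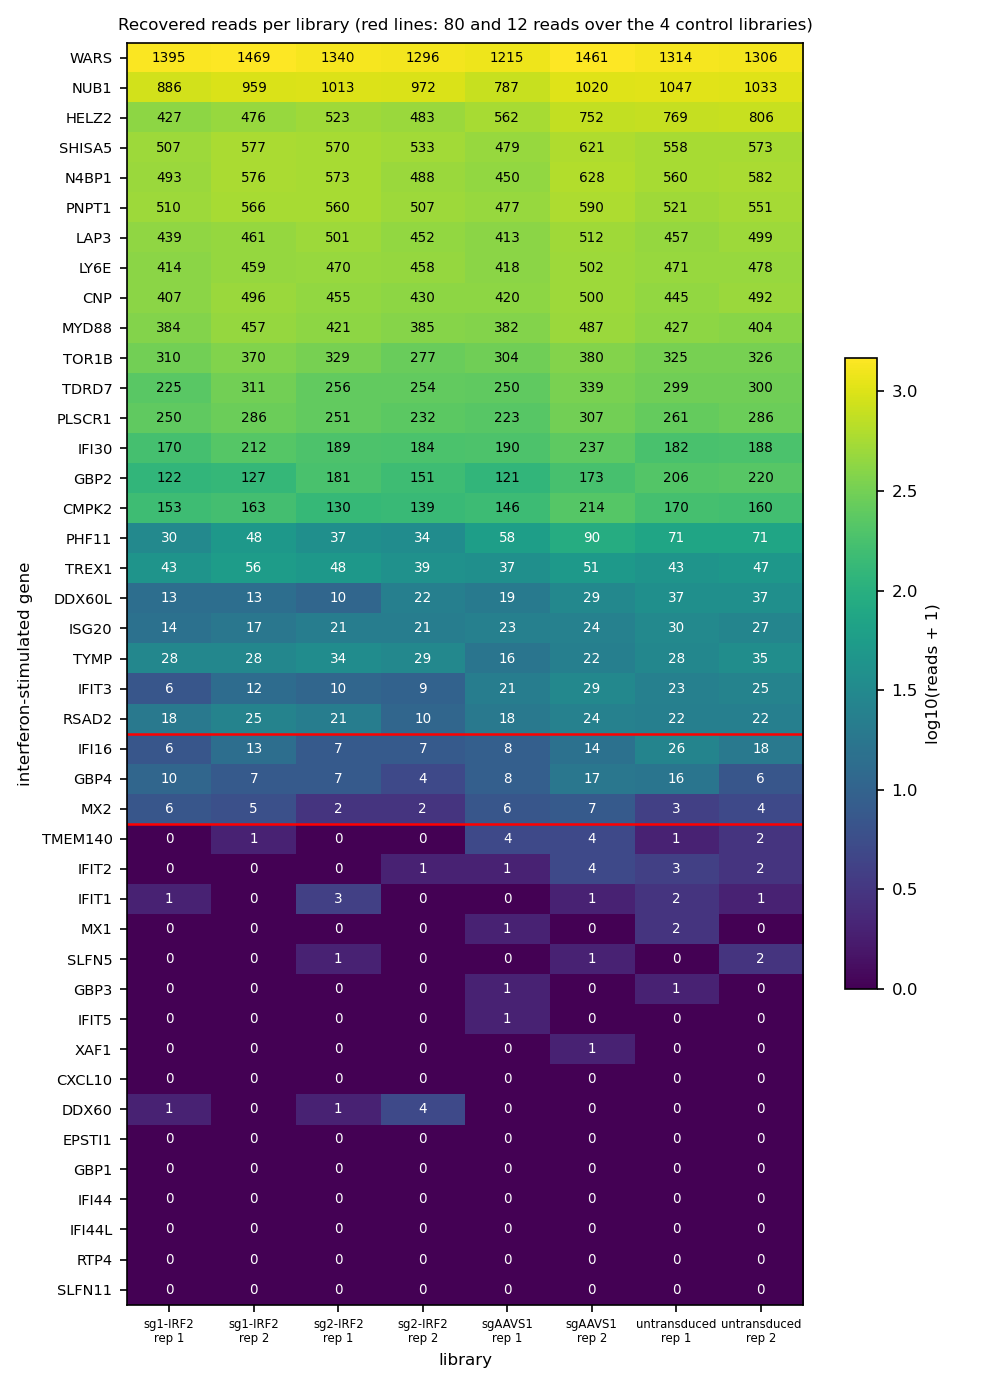
Recovered reads of the 42 interferon-stimulated genes (rows, most control reads at the top) in the 8 libraries (columns), coloured by log10(reads + 1). The 2 red lines mark 80 and 12 reads over the 4 control libraries, and the 16 genes under the lower line had at most 4 reads in any library.

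The list was chosen with earlier results of these data known. The shares of members called, here and below, are therefore a description and no test of the list. Of the 25 tested genes, 3 fell with each IRF2 guide against each control: IFIT3, PHF11 and HELZ2. Both guides fitted together gave 4 lower members against sgAAVS1, these 3 and CMPK2 (16%, against 1.10% of all tested genes), and 0 higher (0.491% of all). Against untransduced cells they gave 6 lower (24%, against 1.51% of all) and 0 higher (0.982% of all), with 0 higher by voom in either comparison. By limma, 10 members (against sgAAVS1) and 9 members (against untransduced cells) had an unadjusted p under 0.05, as did 1548 and 2054 of all 14665 tested genes. With sg1-IRF2 alone, these 3 were lower than with sgAAVS1 (12% of the tested members, against 0.498% of all tested genes) and 0 higher (0.327% of all). With sg2-IRF2, 10 were lower than with sgAAVS1 (40%, against 7.11% of all tested genes) and 0 higher (1.05% of all). By voom on the recovered reads, too, 0 members were higher with either guide against sgAAVS1. By limma 8 members (sg1-IRF2) and 19 members (sg2-IRF2) had an unadjusted p under 0.05 in either direction, as did 1131 and 3457 of all 14665 tested genes. Other limma fits called WARS higher with sg1-IRF2 without the first sgAAVS1 library (adjusted p = 0.0433), and DDX60 higher with sg2-IRF2 when low genes were kept. With sg1-IRF2, 5 were lower than in untransduced cells (20%, against 2.06% of all) and 1 higher (4%, against 7.12%). With sg2-IRF2, 6 were lower than in untransduced cells (24%, against 1.23%) and 0 higher (0.0886% of all tested genes, and 0 by voom). There 11 members had an unadjusted p under 0.05 by limma, as did 1584 of all 14665 tested genes. With voom, aligned medians or quantile normalization 2 of those 6 were called, PHF11 and HELZ2. The median log2 difference of the 25 members was -0.04 for sg1-IRF2 and -0.27 for sg2-IRF2 against sgAAVS1, where the medians of all tested genes were 0.04 and -0.07. Against untransduced cells it was 0.02 and -0.14, where all tested genes had 0.07 and -0.04.

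**Figure D2:**
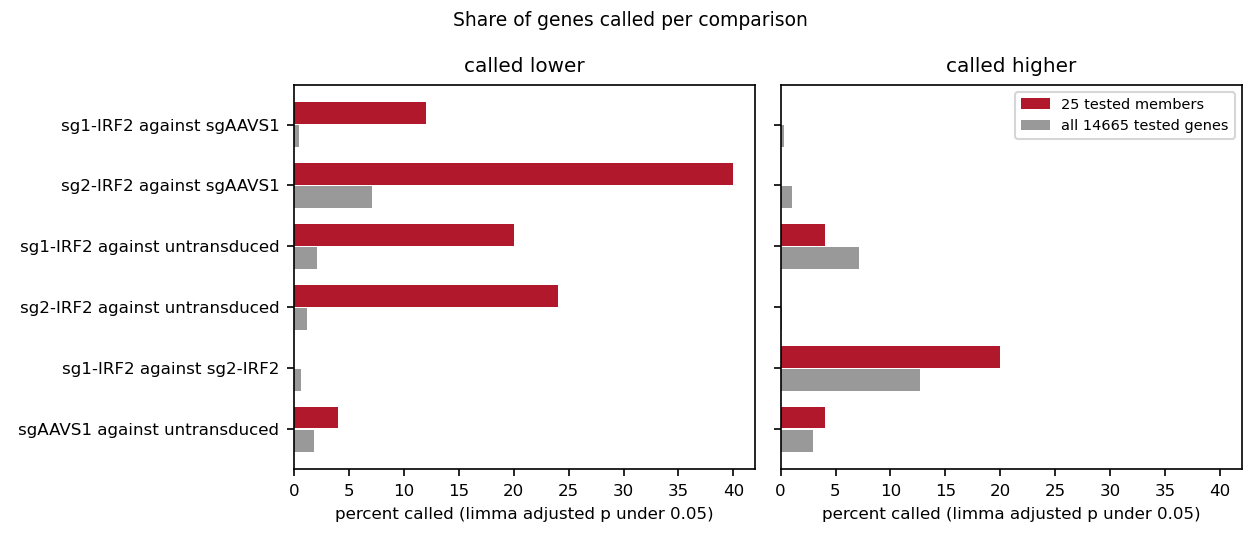
Percent of the 25 tested members (red) and of all 14665 tested genes (grey) called lower (left) and higher (right) in each comparison, named beside the bars. Members called lower against sgAAVS1 made up 12% with sg1-IRF2 and 40% with sg2-IRF2, and against untransduced cells 20% and 24%. The members were chosen with earlier results of these data known.

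IFIT3, which supports IFIT1 in binding viral RNA that lacks the host cap mark, had the lowest fitted difference from sgAAVS1 of the list. It had 6 and 12 reads with sg1-IRF2, 10 and 9 with sg2-IRF2, 21 and 29 with sgAAVS1, and 23 and 25 in untransduced cells. Every IRF2-guide library lay below every control library, and the groups did not overlap on the deposited log2 scale, where the means were 0.73 ± 0.62 with sg1-IRF2, 0.73 ± 0.05 with sg2-IRF2, 2.26 ± 0.06 with sgAAVS1 and 2.10 ± 0.11 in untransduced cells (SD, n = 2 each). Both guides together differed from sgAAVS1 by -1.53 ± 0.31 (SE) on the log2 scale, a 2.89-fold lower level (limma adjusted p = 0.00459). Each guide alone gave -1.53 ± 0.35 (adjusted p = 0.027 for sg1-IRF2 and 0.0079 for sg2-IRF2 by limma), and against untransduced cells -1.38 and -1.37 (limma adjusted p = 0.015 and 0.048). The call of both guides against sgAAVS1 held without any 1 library, and that against untransduced cells was lost without either untransduced library (limma adjusted p = 0.139 and 0.232). With low genes kept, the calls against untransduced cells were lost for each guide and for both together. Without a mean-variance trend every call of IFIT3 was lost, that of both guides against sgAAVS1 included. The single-guide calls were less steady. That of sg1-IRF2 against sgAAVS1 was also lost with low genes kept. That of sg2-IRF2 against untransduced cells was also lost with the replicate number as a block. With sg1-IRF2 against sgAAVS1, limma's adjusted p lay between 0.0592 and 0.0795 when any 1 of the 4 control libraries was left out, and at 0.493 without the first sg1-IRF2 library. With sg2-IRF2 it was 0.0709 without that guide's second library.

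IFIT3 lies on the plus strand of chromosome 10 (89327894 to 89340971, hg38) in a cluster with the other IFIT genes. Its RefSeq promoter windows (build GRCh38.p14, 250 bases before to 50 bases after a start site) are shown because they carry the ISRE core, spelled GAAA, 2 free bases, GAAA and searched on both strands, at 2 places in each. The matches are in capitals, here as the reverse complement of that core.
IFIT3, stretch of the first window, chr10:89327826-89327899, plus strand: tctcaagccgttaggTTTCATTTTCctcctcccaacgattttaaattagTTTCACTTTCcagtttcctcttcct
IFIT3, whole second window, chr10:89332279-89332578, plus strand: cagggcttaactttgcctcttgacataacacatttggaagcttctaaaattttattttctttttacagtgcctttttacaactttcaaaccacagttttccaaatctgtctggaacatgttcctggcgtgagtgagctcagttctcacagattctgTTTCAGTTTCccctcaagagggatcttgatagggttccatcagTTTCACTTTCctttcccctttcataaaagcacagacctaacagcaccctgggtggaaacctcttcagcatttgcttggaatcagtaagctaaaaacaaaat

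PHF11, a PHD-finger protein and transcriptional coactivator in T cells, fell 2.07-fold against sgAAVS1 with both guides. It had 30 and 48 reads with sg1-IRF2, 37 and 34 with sg2-IRF2, 58 and 90 with sgAAVS1, and 71 and 71 in untransduced cells. Again no IRF2-guide library reached a control library on the deposited scale, with log2 values of 2.61 to 3.16 with the guides and 3.65 to 3.94 in the controls. Both guides differed from sgAAVS1 by -1.05 ± 0.17 (limma adjusted p = 2.2e-04) and from untransduced cells by -0.91 ± 0.17 (1.88-fold lower, limma adjusted p = 0.00136). By guide the difference from sgAAVS1 was -0.92 ± 0.19 for sg1-IRF2 (limma adjusted p = 0.0086) and -1.18 ± 0.19 for sg2-IRF2 (2.7e-04). The call of sg1-IRF2 was lost without the second sgAAVS1 library (limma adjusted p = 0.0669) and without the first of its own (0.37). That of both guides against untransduced cells was lost without either untransduced library (0.0649 and 0.0845). Every call of PHF11 was lost without a mean-variance trend. PHF11 lies on the plus strand of chromosome 13 (49495610 to 49528987).

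HELZ2, a large helicase and nuclear receptor coactivator, was called under each setting tried. It had 427 and 476 reads with sg1-IRF2, 523 and 483 with sg2-IRF2, 562 and 752 with sgAAVS1, and 769 and 806 in untransduced cells. On the deposited log2 scale the guide libraries spanned 6.44 to 6.48, those with sgAAVS1 averaged 6.98 ± 0.03 (SD, n = 2) and untransduced ones spanned 7.09 to 7.19, so the groups did not overlap. Both guides differed from sgAAVS1 by -0.52 ± 0.05 (1.44-fold lower, limma adjusted p = 2.5e-08) and from untransduced cells by -0.68 ± 0.05 (1.60-fold lower, limma adjusted p = 1.7e-10). The difference between the guides had a 95% interval of -0.12 to 0.12. Under each of the 16 alternative settings HELZ2 was lower with either guide against either control. Untransduced cells lay above sgAAVS1 cells, by a difference of -0.16 ± 0.06 for sgAAVS1 against untransduced (limma adjusted p = 0.11), which was called with quantile normalization, aligned medians and voom (adjusted p 0.0267, 0.0426 and 0.0249).

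HELZ2 lies on the minus strand of chromosome 20 (63558086 to 63574239), and its RefSeq window at the annotated start is shown because, unlike those of IFIT3, it holds no match to the ISRE core. The absence says only that these letters are not in this stretch.
HELZ2, window at the distal start, chr20:63574190-63574489, minus strand: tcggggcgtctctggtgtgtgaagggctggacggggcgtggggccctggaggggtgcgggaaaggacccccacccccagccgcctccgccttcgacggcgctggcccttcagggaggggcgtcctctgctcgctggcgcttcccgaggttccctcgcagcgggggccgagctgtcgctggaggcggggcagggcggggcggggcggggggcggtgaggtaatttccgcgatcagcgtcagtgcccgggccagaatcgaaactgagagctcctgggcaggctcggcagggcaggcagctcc

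**Figure D3:**
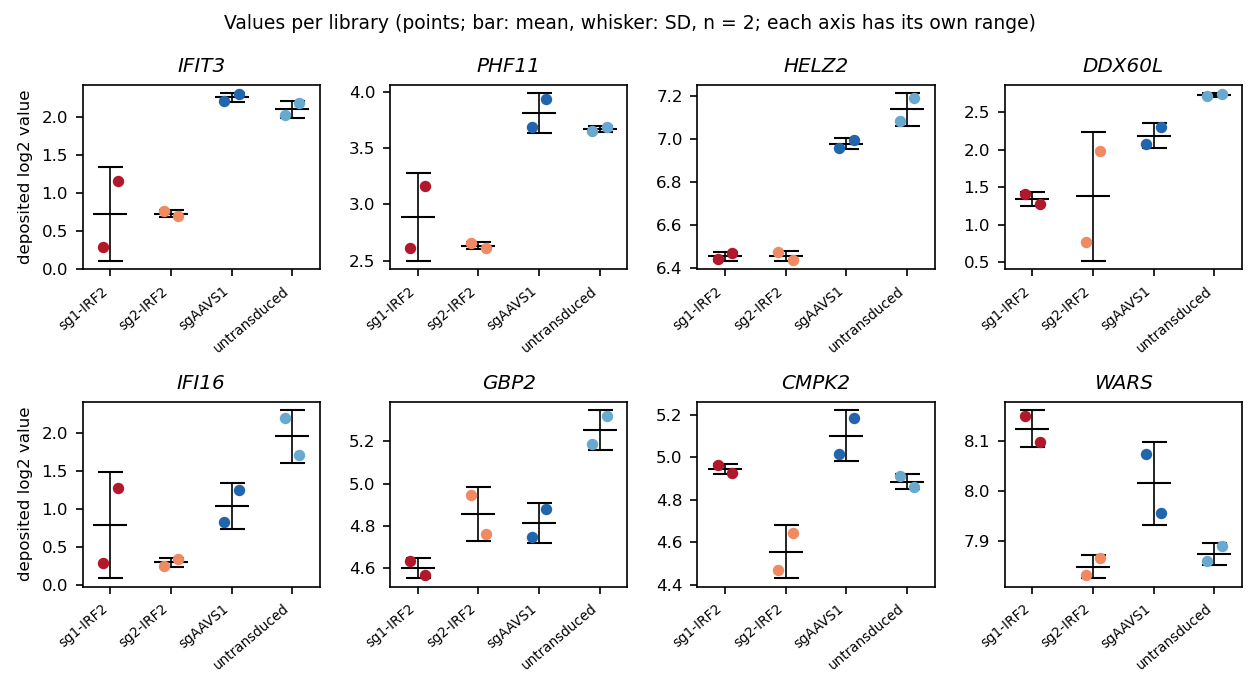
Deposited log2 values of 8 members in each library (points), with the mean (bar) and SD (whisker) of each group of 2, and an axis range of its own for each gene. In IFIT3, PHF11, HELZ2 and DDX60L all 4 IRF2-guide libraries sit below all 4 control libraries, and in IFI16, GBP2, CMPK2 and WARS they do not.

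In 5 of the 25 tested genes all 4 IRF2-guide libraries lay below all 4 control libraries, against 1.79% of all tested genes. These were IFIT3, PHF11, HELZ2, DDX60L and ISG20. In 0 members did all 4 lie above, against 0.948% of all tested genes. DDX60L, a paralogue of the antiviral helicase DDX60, had 13 and 13 reads with sg1-IRF2, 10 and 22 with sg2-IRF2, 19 and 29 with sgAAVS1, and 37 and 37 in untransduced cells. Its difference from sgAAVS1 was -0.83 ± 0.28 for both guides (limma adjusted p = 0.198), and from untransduced cells -1.37 ± 0.28 (2.59-fold lower, limma adjusted p = 0.00556). It was lower than in untransduced cells with each guide (-1.39 and -1.35, limma adjusted p = 0.0086 and 0.035). The sgAAVS1 cells lay between, at -0.54 ± 0.33 from untransduced cells (limma adjusted p = 0.40). The call of both guides against untransduced cells was lost without either untransduced library (limma adjusted p = 0.148 and 0.185), and that against sgAAVS1 appeared without the second sg2-IRF2 library (0.0311). ISG20, an exonuclease that degrades RNA, had 14 and 17 reads with sg1-IRF2, 21 and 21 with sg2-IRF2, 23 and 24 with sgAAVS1, and 30 and 27 in untransduced cells. It was not called (both guides against sgAAVS1 -0.46 ± 0.24, limma adjusted p = 0.519).

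GBP2 and IFI16 were also called lower with both IRF2 guides fitted together against untransduced cells and not against sgAAVS1. GBP2, a guanylate-binding GTPase, had 122 and 127 reads with sg1-IRF2, 181 and 151 with sg2-IRF2, 121 and 173 with sgAAVS1, and 206 and 220 in untransduced cells. On the deposited log2 scale all guide libraries, the sgAAVS1 ones included, lay below the untransduced ones. Both IRF2 guides differed from untransduced cells by -0.53 ± 0.09 (limma adjusted p = 5.7e-04) and from sgAAVS1 by -0.08 ± 0.09 (0.82), while sgAAVS1 itself differed from untransduced cells by -0.44 ± 0.10 (0.011). That last call was lost without either untransduced library (limma adjusted p = 0.0564 and 0.146) or the first sgAAVS1 library (0.0521), and the call of both IRF2 guides without the second untransduced library (0.0839). GBP2 shares exonic bases with GBP7 on the same strand, so its reads are not assigned with certainty.

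IFI16, a sensor of DNA in the nucleus and cytosol, had 6 and 13 reads with sg1-IRF2, 7 and 7 with sg2-IRF2, 8 and 14 with sgAAVS1, and 26 and 18 in untransduced cells. It too was highest in untransduced cells. Both IRF2 guides differed from those by -1.42 ± 0.37 (limma adjusted p = 0.0325) and from sgAAVS1 by -0.50 ± 0.37 (0.696), and sgAAVS1 differed from untransduced cells by -0.92 ± 0.42 (0.23). By guide, sg2-IRF2 differed from untransduced cells by -1.66 ± 0.42 (limma adjusted p = 0.0444) and sg1-IRF2 by -1.17 ± 0.42 (0.0801), which was not called. The call of both guides was lost without either untransduced library (limma adjusted p = 0.398 and 0.183), without the first sg1-IRF2 library (0.122) and without either library of the other IRF2 guide (0.0607 and 0.0506). It was also lost with the replicate number as a block (0.0512) and with low genes kept (0.182).

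Against sgAAVS1, 7 members were called lower with sg2-IRF2 and not with sg1-IRF2: CMPK2, TDRD7, IFI30, TOR1B, PLSCR1, MYD88 and WARS. In this comparison the median of all tested genes was itself -0.07, and with library medians aligned or with voom CMPK2 alone of these was still called (with quantile normalization CMPK2 and TOR1B). None of the 7 was called with sg2-IRF2 against untransduced cells by limma or by voom. By limma 6 other members were called there, and 11 of the 25 had an unadjusted p under 0.05, as did 1584 of all 14665 tested genes. CMPK2 and TDRD7 were called there when low genes were kept (limma adjusted p = 0.0433 and 0.0413) or with the compared groups alone (0.0414 and 0.0146). Without the first or the second sg2-IRF2 library, the 10 lower calls of sg2-IRF2 against sgAAVS1 became 5 or 4.

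CMPK2, a mitochondrial nucleotide kinase, had 153 and 163 reads with sg1-IRF2, 130 and 139 with sg2-IRF2, 146 and 214 with sgAAVS1, and 170 and 160 in untransduced cells. On the deposited log2 scale the sg2-IRF2 libraries (4.47 and 4.64) lay below the 6 others (4.86 to 5.19). The difference of sg2-IRF2 was -0.55 ± 0.10 from sgAAVS1 (limma adjusted p = 0.0015) and -0.33 ± 0.10 from untransduced cells (0.14), that of sg1-IRF2 -0.16 ± 0.10 from sgAAVS1 (0.79). Both guides together gave -0.35 ± 0.09 (limma adjusted p = 0.0367). That call was lost in 6 of the 8 fits with 1 library left out, the exceptions being the first sgAAVS1 library and the second sg2-IRF2 library. It was also lost with aligned medians (limma adjusted p = 0.0658), with the compared groups alone and without a mean-variance trend.

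CMPK2 and RSAD2 lie on opposite strands of chromosome 2 and share 14 exonic bases. RSAD2 encodes viperin, a radical SAM enzyme that makes a chain-terminating nucleotide from the product of CMPK2. It had 18 and 25 reads with sg1-IRF2, 21 and 10 with sg2-IRF2, 18 and 24 with sgAAVS1, and 22 and 22 in untransduced cells. The groups overlapped. The difference of both guides from sgAAVS1 was -0.32, with a 95% interval of -0.89 to 0.25, wide enough to hold a change of the size seen in CMPK2.

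WARS, the cytosolic tryptophanyl-tRNA synthetase, was the best-read member. It had 1395 and 1469 reads with sg1-IRF2, 1340 and 1296 with sg2-IRF2, 1215 and 1461 with sgAAVS1, and 1314 and 1306 in untransduced cells. Its log2 value was highest with sg1-IRF2 (8.15 and 8.10) and lowest with sg2-IRF2 (7.83 and 7.87). It was higher with sg1-IRF2 than in untransduced cells (0.25 ± 0.05, limma adjusted p = 0.0013, and 0.0511 without the first untransduced library) and lower with sg2-IRF2 than with sgAAVS1 (-0.17 ± 0.05, adjusted p = 0.030). Both guides together differed from sgAAVS1 by -0.03, with a 95% interval of -0.11 to 0.06. WARS overlaps WDR25 and an antisense gene on the opposite strand.

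The other sg2-IRF2 calls were small. MYD88, the adaptor of Toll-like receptors, had 384 and 457 reads with sg1-IRF2, 421 and 385 with sg2-IRF2, 382 and 487 with sgAAVS1, and 427 and 404 in untransduced cells. TOR1B, an ATPase of the endoplasmic reticulum lumen, had 310 and 370 reads with sg1-IRF2, 329 and 277 with sg2-IRF2, 304 and 380 with sgAAVS1, and 325 and 326 in untransduced cells. PLSCR1, a membrane protein that blocks virus entry, had 250 and 286 reads with sg1-IRF2, 251 and 232 with sg2-IRF2, 223 and 307 with sgAAVS1, and 261 and 286 in untransduced cells. On the deposited log2 scale the untransduced libraries of MYD88 and TOR1B lay between those of the IRF2 guides. Their differences between sg2-IRF2 and sgAAVS1 ran from -0.25 (MYD88) to -0.32 (TOR1B), with limma adjusted p of 0.0083 to 0.039.

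TDRD7, a tudor-domain protein that inhibits autophagy used by viruses, had 225 and 311 reads with sg1-IRF2, 256 and 254 with sg2-IRF2, 250 and 339 with sgAAVS1, and 299 and 300 in untransduced cells. IFI30, a lysosomal thiol reductase that unfolds antigens, had 170 and 212 reads with sg1-IRF2, 189 and 184 with sg2-IRF2, 190 and 237 with sgAAVS1, and 182 and 188 in untransduced cells. Both differed by -0.34 ± 0.09 between sg2-IRF2 and sgAAVS1 (limma adjusted p = 0.016 for TDRD7 and 0.023 for IFI30). For IFI30 the sgAAVS1 cells stood out, at 0.31 ± 0.09 above untransduced cells (limma adjusted p = 0.048). This was the only higher call of a member among sgAAVS1 against untransduced (1 of 25, or 4%, against 2.97% of all tested genes), and GBP2 was the only lower one (4%, against 1.79%). The IFI30 call was lost without either untransduced library (limma adjusted p = 0.284 and 0.114), the first sgAAVS1 library (0.127) or either sg2-IRF2 library (0.0704 and 0.0719), and with voom (0.0595). IFI30 shares exonic bases with another annotated gene on the same strand.

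Between the guides, 5 members were higher with sg1-IRF2 than with sg2-IRF2 (20%, against 12.7% of all tested genes) and 0 lower (0.634% of all, and 0 by voom). By limma 12 of the 25 had an unadjusted p under 0.05, as did 4599 of all 14665 tested genes. The 5 were CMPK2, TOR1B, PLSCR1, WARS and MYD88, by 0.21 to 0.39 on the log2 scale, where the median of all tested genes was 0.11. With library medians aligned 0 were called, with voom only WARS was higher, and with quantile normalization WARS was higher and GBP2 lower. The 3 genes that fell with both guides did not differ between them past the threshold, with 95% intervals of -0.73 to 0.72 for IFIT3, -0.14 to 0.65 for PHF11 and -0.12 to 0.12 for HELZ2, although IRF2 itself was lower with sg1-IRF2 by -1.77 ± 0.21 (limma adjusted p = 9.7e-06).

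**Figure D4:**
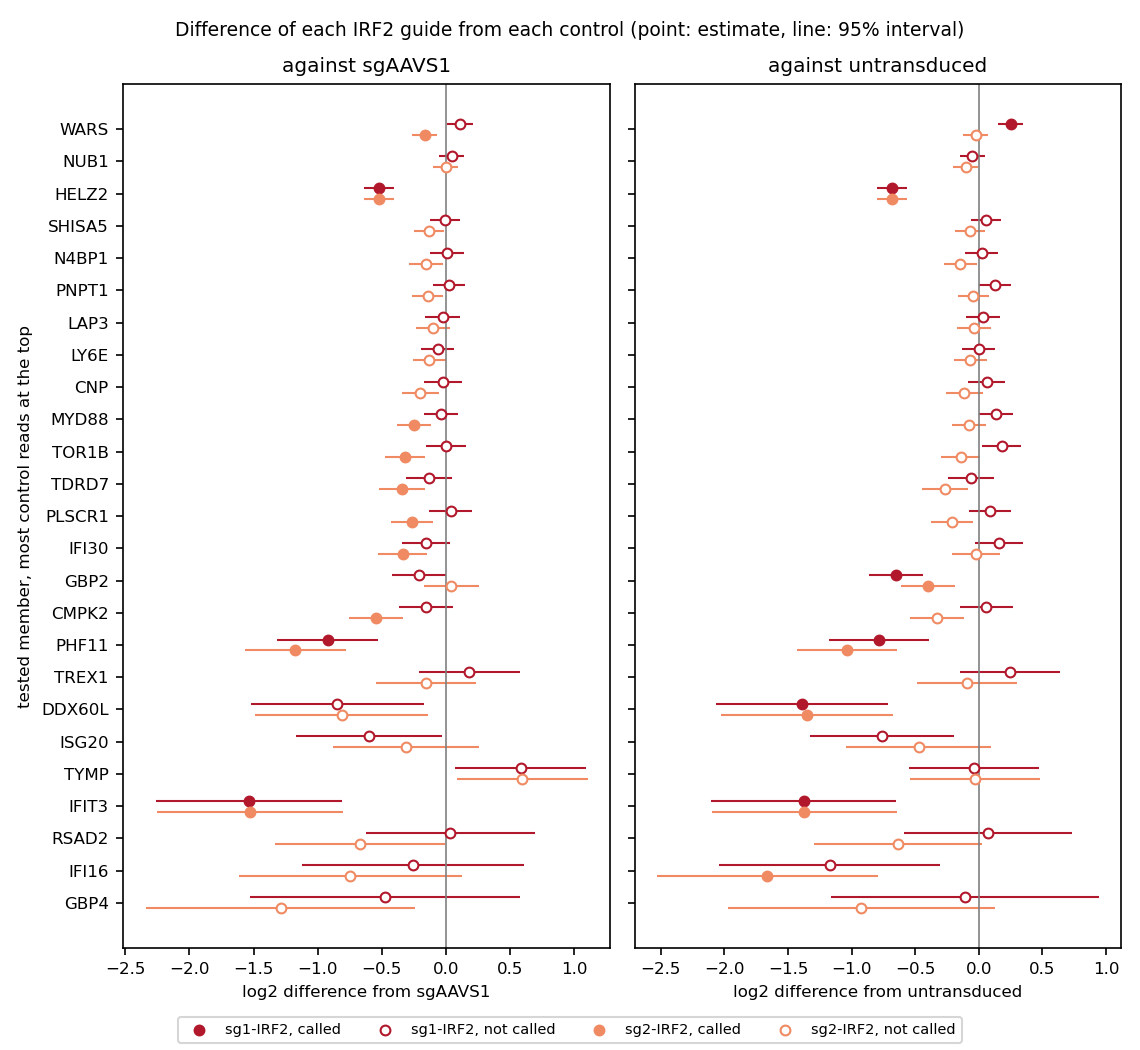
Log2 difference of sg1-IRF2 (dark red) and sg2-IRF2 (orange) from sgAAVS1 (left) and from untransduced cells (right) for the 25 tested members, ordered by control reads. Points are limma estimates, lines 95% intervals, filled points adjusted p under 0.05. HELZ2, PHF11 and IFIT3 are filled for each guide in each panel.

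Among the best-read genes without a call, the intervals were narrow. NUB1, which sends ubiquitin-like proteins to the proteasome, had 886 and 959 reads with sg1-IRF2, 1013 and 972 with sg2-IRF2, 787 and 1020 with sgAAVS1, and 1047 and 1033 in untransduced cells, and both guides differed from sgAAVS1 by 0.02 (95% interval -0.06 to 0.11). LY6E, a lipid-anchored surface protein that restricts coronaviruses, had 414 and 459 reads with sg1-IRF2, 470 and 458 with sg2-IRF2, 418 and 502 with sgAAVS1, and 471 and 478 in untransduced cells, a difference of -0.10 (-0.21 to 0.01). SHISA5, a membrane protein linked to apoptosis, had 507 and 577 reads with sg1-IRF2, 570 and 533 with sg2-IRF2, 479 and 621 with sgAAVS1, and 558 and 573 in untransduced cells, a difference of -0.07 (-0.17 to 0.03). A fall as deep as that of HELZ2 lies outside each of these 3 intervals. With the compared groups alone, SHISA5 was called higher with sg1-IRF2 than with sg2-IRF2.

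For 4 further genes, too, a fall as deep as that of HELZ2 lies outside the interval. PNPT1, a mitochondrial polynucleotide phosphorylase, had 510 and 566 reads with sg1-IRF2, 560 and 507 with sg2-IRF2, 477 and 590 with sgAAVS1, and 521 and 551 in untransduced cells. N4BP1, an RNA-cleaving restriction factor, had 493 and 576 reads with sg1-IRF2, 573 and 488 with sg2-IRF2, 450 and 628 with sgAAVS1, and 560 and 582 in untransduced cells. LAP3, a leucine aminopeptidase, had 439 and 461 reads with sg1-IRF2, 501 and 452 with sg2-IRF2, 413 and 512 with sgAAVS1, and 457 and 499 in untransduced cells. CNP, a phosphodiesterase of membranes, had 407 and 496 reads with sg1-IRF2, 455 and 430 with sg2-IRF2, 420 and 500 with sgAAVS1, and 445 and 492 in untransduced cells. The 95% intervals for both guides against sgAAVS1 were -0.17 to 0.05 for PNPT1, -0.19 to 0.04 for N4BP1, -0.18 to 0.05 for LAP3 and -0.24 to 0.01 for CNP. With 1 sgAAVS1 library left out or with the compared groups alone, PNPT1, N4BP1 and CNP were called higher with sg1-IRF2 than with sg2-IRF2 (limma adjusted p = 0.0135 to 0.0298). Against sgAAVS1, sg2-IRF2 gave a lower call of N4BP1 without the first sgAAVS1 library (0.0403), and of CNP without the second (0.0123) or with low genes kept (0.0457). CNP and NUB1 share exonic bases with genes on the opposite strand.

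For genes with fewer reads the intervals were wider. TREX1, the exonuclease that clears cytosolic DNA, had 43 and 56 reads with sg1-IRF2, 48 and 39 with sg2-IRF2, 37 and 51 with sgAAVS1, and 43 and 47 in untransduced cells (both guides against sgAAVS1 0.01, 95% interval -0.33 to 0.35). All 1515 exonic bases of TREX1 also belong to ATRIP on the same strand, so its reads cannot be told from those of that gene. TYMP, thymidine phosphorylase, had 28 and 28 reads with sg1-IRF2, 34 and 29 with sg2-IRF2, 16 and 22 with sgAAVS1, and 28 and 35 in untransduced cells. It was lowest with sgAAVS1, and the guides differed from sgAAVS1 by 0.59 ± 0.22 (limma adjusted p = 0.241) and from untransduced cells by -0.03 ± 0.22 (0.972). TYMP shares exonic bases with SCO2 and ODF3B on the same strand, so its reads are not assigned with certainty. GBP4, another guanylate-binding GTPase, had 10 and 7 reads with sg1-IRF2, 7 and 4 with sg2-IRF2, 8 and 17 with sgAAVS1, and 16 and 6 in untransduced cells, with a 95% interval of -1.79 to 0.03 for both guides against sgAAVS1.

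Several genes widely used as markers of an interferon response had few or no reads in any group. IFI44, IFI44L, GBP1, EPSTI1, SLFN11, RTP4 and CXCL10, 7 of the 42, had 0 reads in all 8 libraries, where 3 reads is the limit that a count of 0 allows in a library, for counting error only. IFI44 and IFI44L are cytoplasmic antiviral proteins, SLFN11 blocks stalled replication forks, and CXCL10 is a chemokine that draws T cells. XAF1 and IFIT5 had 1 read each in the 8 libraries, GBP3 had 2, MX1 had 3 and SLFN5 had 4. At this depth a difference in these genes was not detectable.

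The remaining members under 12 control reads had at least 3 reads in some library. TMEM140, a small membrane protein, had 0 and 1 reads with sg1-IRF2, 0 and 0 with sg2-IRF2, 4 and 4 with sgAAVS1, and 1 and 2 in untransduced cells. Over the 4 IRF2-guide libraries that is 1 read against 11 over the 4 control libraries, a ratio per read sequenced of 0.0906 with a 95% exact counting interval of 0.0021 to 0.623. IFIT2, which binds AU-rich viral RNA, had 0 and 0 reads with sg1-IRF2, 0 and 1 with sg2-IRF2, 1 and 4 with sgAAVS1, and 3 and 2 in untransduced cells, 1 read against 10 and a ratio of 0.0996 (0.0023 to 0.7). When genes with low values were kept, TMEM140 was called lower for both guides against sgAAVS1 and IFIT2 against untransduced cells. In that fit TMEM140 was also called higher with sgAAVS1 than in untransduced cells. TMEM140 shares exonic bases with CYREN on the opposite strand. IFIT2 shares them with AL353751.1 on the same strand and with LIPA on the opposite strand, so its few reads are not assigned with certainty.

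IFIT1, the cap-sensing partner of IFIT3, had 1 and 0 reads with sg1-IRF2, 3 and 0 with sg2-IRF2, 0 and 1 with sgAAVS1, and 2 and 1 in untransduced cells. DDX60, an antiviral helicase, had 1 and 0 reads with sg1-IRF2, 1 and 4 reads with sg2-IRF2, and 0 in all 4 control libraries. Against a floor of 3 reads over the control group, the 6 reads of the IRF2-guide libraries gave 1.99, a bound and not a measured ratio. That bound takes the 6 reads as exact, and 4 of them came from sg2-IRF2 replicate 2. The control-to-guide ratio was 0, with a 95% exact counting interval of 0 to 0.853. With low genes kept, limma called DDX60 higher with sg2-IRF2 against either control. MX2, which blocks HIV at the nuclear pore, had 6 and 5 reads with sg1-IRF2, 2 and 2 with sg2-IRF2, 6 and 7 with sgAAVS1, and 3 and 4 in untransduced cells, 15 reads against 20 (guide-to-control ratio 0.747, 95% exact counting interval 0.356 to 1.54). MX1 and MX2 are neighbours on chromosome 21, and MX2 had more reads than MX1 in every library.

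Neighbouring family members differed in level. In RPKM (RPM divided by exon length in kilobases), averaged over the 4 control libraries, IFIT3 stood at 1.51, IFIT2 at 0.0991, IFIT1 at 0.0352 and IFIT5 at 0.0101, and all 4 lie on the plus strand of chromosome 10 with at most 105310 bases between them. In the GBP cluster of chromosome 1, GBP2 stood at 4.66, GBP4 at 0.312, GBP3 at 0.0189, and GBP1 had no read. For the DDX60 pair, 37928 bases apart on chromosome 4, DDX60L stood at 0.408 and DDX60 had no control read. The highest levels per length were those of WARS (33.9), NUB1 (29.2) and LY6E (28.8), and HELZ2 stood at 9.73 and PHF11 at 2.43.

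Promoter sequence was compared with these levels. RefSeq windows were found for 35 of the 42 members, WARS under its current symbol WARS1, and not for IFIT2, MX2, LY6E, GBP2, SLFN5, PHF11 and TOR1B. At least 1 window held the ISRE core in 22 of the 35 members (62.9%), against 4.38% of the 27305 genes of that table, and 7 members held 2 or more matches in a window (0.311% of genes). By window the share was 52% of 50 windows, against 3.57% of all windows of the same length. Of the members under 12 control reads 12 of 14 had a match (85.7%), and of those with more reads 10 of 21 (47.6%). The gamma-activated sequence TTCNNNGAA was found in windows of 9 members, in 10 of the 50 member windows (20%), against 7.66% of all windows. Matches of both motifs share bases in 3 of the 50 member windows, in MX1, EPSTI1 and MYD88, and both were searched on both strands.

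**Figure D5:**
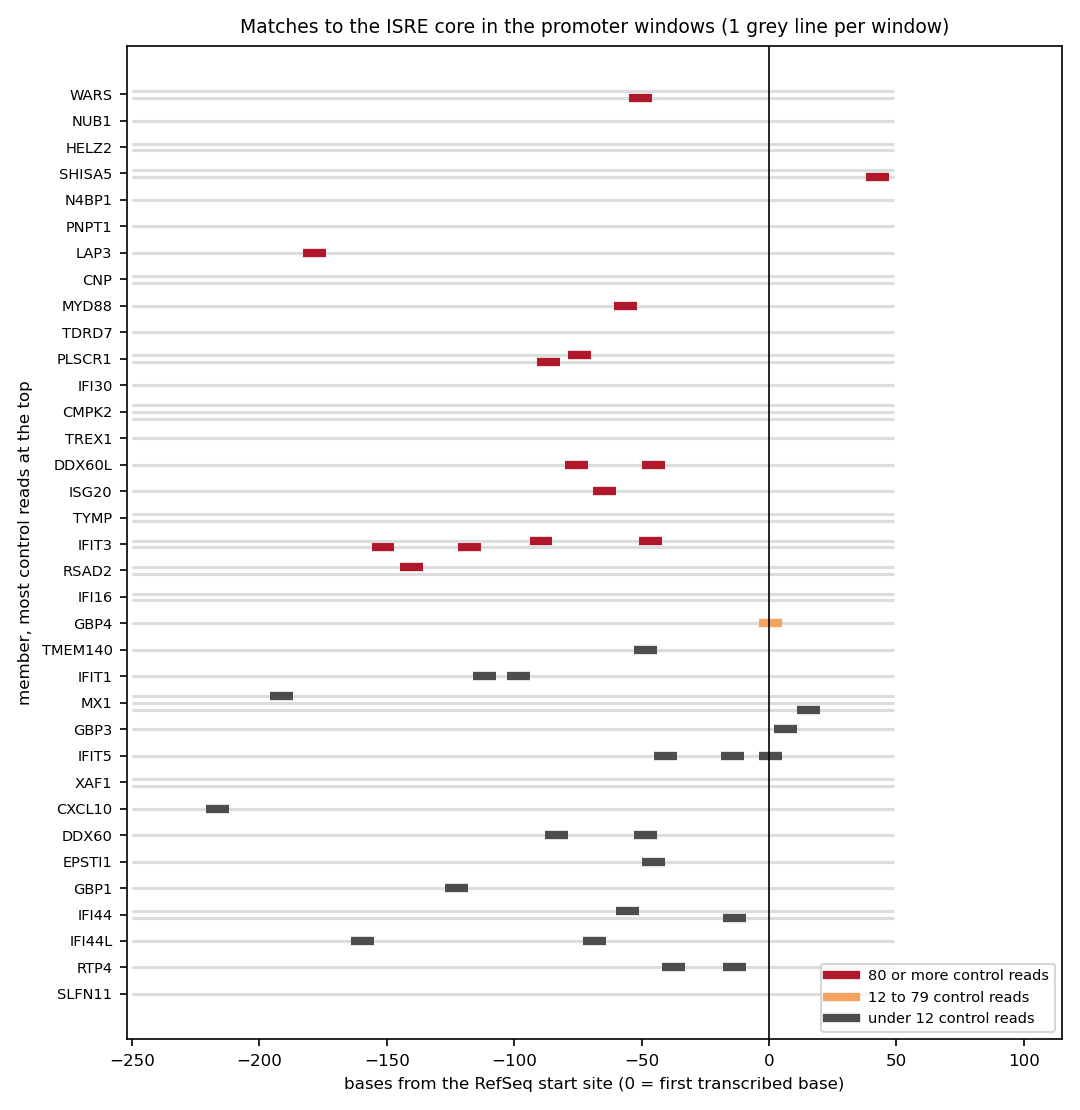
Positions of matches to the ISRE core (thick marks) relative to the RefSeq start site, in bases, in the windows (grey lines) of 35 members ordered by control reads. Marks are coloured by control reads, and matches appear in 12 of the 14 members under 12 control reads.

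The stretches around the match are shown for members of each level, to set IFIT3 beside genes that were not called or hardly read. Matches are in capitals, and each is written on the strand of its gene.
IFIT1, under 12 control reads, chr10:89392492-89392544, plus strand: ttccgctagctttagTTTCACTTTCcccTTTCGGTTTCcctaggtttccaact
DDX60, under 12 control reads, chr4:168318781-168318855, minus strand: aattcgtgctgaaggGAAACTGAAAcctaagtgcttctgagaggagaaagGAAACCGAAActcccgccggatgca
DDX60L, 122 control reads, chr4:168480518-168480587, minus strand: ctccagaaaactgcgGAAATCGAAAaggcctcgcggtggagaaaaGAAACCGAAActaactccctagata
RTP4, no reads, chr3:187368328-187368391, plus strand: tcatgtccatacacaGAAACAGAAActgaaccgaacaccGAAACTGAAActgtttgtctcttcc
TMEM140, 11 control reads, chr7:135148004-135148043, plus strand: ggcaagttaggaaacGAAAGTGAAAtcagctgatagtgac
ISG20, 104 control reads, chr15:88638932-88638971, plus strand: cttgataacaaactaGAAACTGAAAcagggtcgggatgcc
MYD88, 1700 control reads, chr3:38138585-38138624, plus strand: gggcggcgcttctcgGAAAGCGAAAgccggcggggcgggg
IFIT3 and IFIT1 carry the core as its reverse complement on the gene's strand, and the 6 other genes shown here carry it as spelled. A pair of matches occurs in a gene that fell with each guide against each control (IFIT3). DDX60L, called lower against untransduced cells and not against sgAAVS1, also has a pair. So do genes hardly read (IFIT1, DDX60) and a gene with no reads (RTP4). A match is a description and not a site in use.

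The rest of the interferon pathway was read by role from a list of 35 genes, of which 21 were tested. The 10 interferon ligand genes listed had 0 reads in all 8 libraries. Of the 5 tested receptor genes, limma called 0 for both IRF2 guides fitted together against either control. By guide, IFNAR1 (-0.23, limma adjusted p = 0.013) and IFNAR2 (-0.27, 0.0165) were lower with sg2-IRF2 than with sgAAVS1, as were 7.11% of all tested genes. IFNAR1 was also higher with sg1-IRF2 than with sg2-IRF2 (0.30, limma adjusted p = 0.00211), as were 12.7% of all. The other tested receptor genes were not called by guide. For both guides fitted together, only IRF2 of the 5 tested regulatory factors was lower. Of the 5 tested negative regulators, SOCS1 was higher in that fit against sgAAVS1 alone. By guide, PTPN6 was higher with sg1-IRF2 than in untransduced cells (0.52, limma adjusted p = 0.00493), as were 7.12% of all tested genes. It was also higher with sg1-IRF2 than with sg2-IRF2 (0.35, limma adjusted p = 0.043). With sgAAVS1, too, PTPN6 was higher than in untransduced cells (0.42, limma adjusted p = 0.0306).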

How the data were processed

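RNA was depleted of ribosomal RNA and made into libraries with a directional kit, per the labels' protocols. Per the submitters' processing notes, the tools were cutadapt and Bowtie2 with build hg38. The counting tool, its strand setting and the treatment of duplicate reads are not stated there. The authors deposited log2 values. On the linear scale each is a whole number of reads times a constant of its library. Whole reads were recovered from them (tolerance 0.01 read, 100% of values above the column minimum), with genes without reads listed at the value of 0.9 read.

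Genes with a mean log2 value of at least 0 (14665 of 35805) were fitted in 1 model over all 8 libraries (limma 3.58.1 with R 4.3.3, empirical Bayes moderation with a mean-variance trend, 4 residual and 22.4 prior degrees of freedom, two-sided, Benjamini-Hochberg over all tested genes). The code of the fit was run on simulated reads with 1 dispersion for all genes, equal effects of both IRF2 guides and no library-wide shift. That run does not speak to the spread or the shifts of these libraries. Errors are the model's SE, and 95% intervals use its t distribution. Counting intervals are exact binomial and cover counting error only, since no molecular identifiers are named. The deposited log2 values are not counts, so voom on the recovered reads stood in for a count model as a further setting. Classes used limits of 12 and 80 control reads. Values are given for each member called in any comparison, for hardly read members with at least 3 reads in a library, and for the best-read others. Exons and overlaps came from GENCODE release 29, and windows from RefSeq (GRCh38.p14). Part of the pathway list is not reported here. Members and lists were chosen with earlier results of these data known. The main fit did not take replicate numbers as pairs. Python 3.11.15 with numpy 2.4.6, pandas 2.3.3, scipy 1.17.1 and matplotlib 3.10.9 was used.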

Additional observations from a re-analysis of the deposited data

Results flagged for a closer look

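The effects of the guides differed for 5 members, each by limma's test of sg1-IRF2 against sg2-IRF2 over all tested genes. The log2 difference was 0.39 for CMPK2 (adjusted p = 0.0162), 0.32 for TOR1B (0.00801), 0.30 for PLSCR1 (0.0165), 0.27 for WARS (8.7e-04) and 0.21 for MYD88 (0.0321). All 5 were higher with sg1-IRF2, the direction in which 12.7% of all tested genes were called. The median over all tested genes in this comparison was 0.11, and with library medians aligned 0 of the 5 were called. The part of the library-wide shift in these differences was not tested.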

How the results depend on the processing

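Of 3160 member values recomputed under other settings, 2939 kept their side of the threshold, 128 of them with a change of sign between values that were both not called, 186 lost a call, 35 gained one and 0 called values reversed. HELZ2 kept its call in every guide-to-control comparison. Without a mean-variance trend the members called became 1, HELZ2, for each guide, or both, against either control. They became 0 between the guides and 0 for sgAAVS1 against untransduced cells. For sg2-IRF2 against sgAAVS1 (10 called), quantile normalization gave 5, aligned medians 4 and voom 4. For sg2-IRF2 against untransduced cells (6 called), these gave 2, 2 and 2, and the stricter filter 3, as it also did for both guides (6 called). Between the guides (5 called), they gave 2, 0 and 1, and a fit of the compared groups alone 9. That fit gave 1 for sgAAVS1 against untransduced cells (2 called). With 1 library left out, where a lone library is assumed to vary like the other groups, the counts ranged from 3 to 5 (both guides against sgAAVS1), 1 to 3 (sg1-IRF2 against sgAAVS1), 4 to 10 (sg2-IRF2 against sgAAVS1), 1 to 7 (both against untransduced), 2 to 7 (sg1-IRF2 against untransduced), 1 to 6 (sg2-IRF2 against untransduced), 1 to 9 (between the guides) and 0 to 3 (sgAAVS1 against untransduced). The cause was not tested. Same-numbered libraries deviated together by correlations of -0.0794 to 0.216, and the numbers were not taken as pairs in the main fit. MALAT1 was the most-read gene in replicate 1 of every group, and AHNAK in replicate 2 of every group. Whether the numbers mark a shared batch was not tested. With the replicate number as a block, 2 members were called for sg2-IRF2 against untransduced cells and 1 for sgAAVS1 against untransduced cells, and counts in the other comparisons stayed within 1.5 times. With under 30 reads in a library, as in IFIT3 and IFI16, depth limits what can be called, and 16 members with under 12 control reads and MX2 were too rarely read to test.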
